A study of Mus musculus with 12 samples.

Results

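The genes described here belong to the plasminogen activator system and its neighbours in coagulation: *Plat*, *Plau*, *Plaur*, *Serpine2*, *Serpinf1*, *Serpinh1*, *F3*, *Thbd* and *F2r*. Their probes were picked by gene symbol in the probe annotation, which gave 12 probes of the 45281 on the array, for 8 of the 9 genes. *Serpine2* has no probe under that symbol and was not analysed here. A signal of 87.0 was taken as the limit of detection. Each usable column of detection p values gave the rank of its dimmest detected probe. The limit is the highest normalized value at those ranks. A probe was tested if 3 or more of the 12 arrays reached the limit. This held for 17746 probes, 9 of the 12 member probes (7 genes) among them. One *Plat* probe was tested and the other *Plat* probes and the *F3* probe lay below the limit on every array.

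The cells were HT-22, a mouse hippocampal line made immortal with the SV40 T antigen. They had grown in serum stripped of thyroid and steroid hormones and were then kept for 4 h in serum-free medium with vehicle, 30 nM T3 (the active thyroid hormone), 100 nM CORT (corticosterone, the main glucocorticoid of rodents) or both, written T3+CORT. All 4 groups, vehicle included, held 0.03% DMSO and 0.001% ethanol, and each group had 3 Illumina bead arrays. Per the study's methods the treatments were run in triplicate, and p values measure the spread between these 3 runs of a single cell line. The slide of each array is not given in the sources used here, so its part in any difference was not tested. The array number limits the precision: for the median probe the 95% interval of a log2 difference between 2 groups was 0.20 wide on each side.

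The labels call the line a hippocampal neuron. Of its neuronal markers *Eno2*, *Tubb3* and *Syp* passed the filter, and *Nefl*, *Nefm*, *Map2*, *Rbfox3*, *Snap25* and *Syt1* did not, while 8 of 8 fibroblast and mesenchymal markers passed and 0 of 6 endothelial, 0 of 6 glial and 0 of 5 macrophage markers with a probe did. The summed signal of the mesenchymal markers ran from 24064 to 26590 on vehicle, 25356 to 30209 on T3, 24530 to 25483 on CORT and 22408 to 24180 on T3+CORT, and its part in the results was not tested. Known targets of each hormone were called: *Klf9*, a known thyroid hormone target, rose on T3 by 1.62 on the log2 scale (limma, adjusted p = 1.2e-08), and *Tsc22d3*, the glucocorticoid-induced leucine zipper, was at 10255.3 to 10600.9 on CORT against 1846.4 to 2073.9 on vehicle at its brightest probe.

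Plasminogen, made mainly in the liver, is cut to the protease plasmin by tissue-type and urokinase-type plasminogen activators. Plasmin dissolves fibrin and digests other extracellular proteins, and serpins, which trap their target protease, hold the activators in check. In the hippocampus tissue-type activator is known for roles in synaptic plasticity and in excitotoxic injury. Thrombin, the protease of the opposing arm, forms after tissue factor starts coagulation, signals to cells through protease-activated receptors, and is redirected by thrombomodulin to activate protein C.

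*Plat* encodes the tissue-type activator and lies on chr8:22757722-22782848 of GRCm38.p6, *Plau* the urokinase-type activator on chr14:20836662-20843388, and *Plaur* the surface receptor of urokinase on chr7:24460937-24475970. *F3*, tissue factor, lies on chr3:121723537-121735052, *Thbd*, thrombomodulin, on chr2:148404471-148408188, and *F2r*, the thrombin receptor, on chr13:95601780-95618466. *Serpinf1*, pigment epithelium-derived factor, lies on chr11:75410029-75422623 and *Serpinh1*, a collagen chaperone of the endoplasmic reticulum, on chr7:99345375-99353239. Both are serpins by sequence that are not known to inhibit proteases, so the member known as an inhibitor of the activators is *Serpine2*, protease nexin, on chr1:79794317-79858665. The values below therefore cover activators, receptors and serpins that are no inhibitors, and not the inhibitors that the name of the set calls for.

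RefSeq promoter sequence was given for 6 of the 9 genes. *Plaur* and *F2r* are shown because they were called in opposite directions (below) and both hold, in the 250 bases before the start of transcription, the site of the growth factor-driven AP-1 proteins, searched as TGANTCA on both strands and printed in capitals; the motifs were chosen after the values had been seen.
*Plaur*, chr7:24462233-24462482, plus strand: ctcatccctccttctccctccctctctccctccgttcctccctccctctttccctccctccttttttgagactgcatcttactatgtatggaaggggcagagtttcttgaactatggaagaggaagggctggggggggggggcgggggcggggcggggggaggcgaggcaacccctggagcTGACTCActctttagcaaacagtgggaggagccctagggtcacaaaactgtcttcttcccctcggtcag
*F2r*, chr13:95618467-95618716, minus strand: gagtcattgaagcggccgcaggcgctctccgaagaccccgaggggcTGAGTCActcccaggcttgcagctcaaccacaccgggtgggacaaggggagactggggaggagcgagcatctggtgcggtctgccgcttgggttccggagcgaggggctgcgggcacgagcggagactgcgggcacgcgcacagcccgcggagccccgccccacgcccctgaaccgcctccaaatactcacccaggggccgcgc
The start that RefSeq gives for *Plaur* here lies inside the span of the gene given above. The *Plaur* site spans bases 69 to 63 before the start and the *F2r* site bases 204 to 198. Of 32851 mouse promoter windows of the same length 6.75% held this motif. *F3* held 2 such sites and *Serpine2*, *Serpinf1* and *Serpinh1* none. The palindromic glucocorticoid response element was in 0.387% of all windows and in none of these 6, and the thyroid hormone half-site AGGTCA was in 14% and, among the 6, in *Serpinf1* alone. A match is a description of the letters, and no match says only that these letters are not in this window.

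CORT lowered both plasminogen activators and the urokinase receptor. *Plau* read 149.3, 158.8 and 178.3 on the 3 vehicle arrays and 98.5, 102.9 and 93.3 on the CORT arrays. The CORT arrays all lay below the vehicle arrays, and the mean fell from 162.1 ± 14.8 to 98.2 ± 4.81 (SD, n = 3). The log2 difference was -0.72 (standard error 0.08, 95% interval -0.90 to -0.54, limma, adjusted p = 1.7e-05), a ratio of 0.607. *Plau* was the 46th most lowered of the 17746 probes tested on CORT. *Plat* read 606.8, 618.9 and 541 on vehicle and 455.7, 447.7 and 411 on CORT, with no overlap. Its log2 difference was -0.43 (standard error 0.11, 95% interval -0.66 to -0.19, limma, adjusted p = 0.013). *Plaur*, which anchors urokinase at the cell surface, read 138.1, 154 and 140.2 on vehicle and 106, 102.9 and 113.4 on CORT. Here too the groups did not overlap, and the log2 difference was -0.42 (standard error 0.08, 95% interval -0.60 to -0.25, limma, adjusted p = 0.0018). In bulk RNA fewer expressing cells and less RNA per cell cannot be told apart.

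These 3 were the member probes called on CORT, 3 lower and 0 higher of 9, where 20.7% of all tested probes were called and 10.8% were called lower. Arrays of the 2 groups did not overlap for the same number of member probes, 3 of 9, beside 42% of all probes. The median log2 difference was 0.06 over the 9 member probes and -0.01 over all tested probes. At the study's thresholds, a change of 1.5-fold or more with a p, not adjusted, under 0.02, *Plau* passed on CORT and *Plat* and *Plaur* did not, where 2.39% of all probes passed and 0.783% passed lower. The *Plat* call was lost without vehicle replicate 1 (adjusted p = 0.053), without vehicle replicate 2 (adjusted p = 0.058) and without CORT replicate 3 (adjusted p = 0.06).

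**Figure D1:**
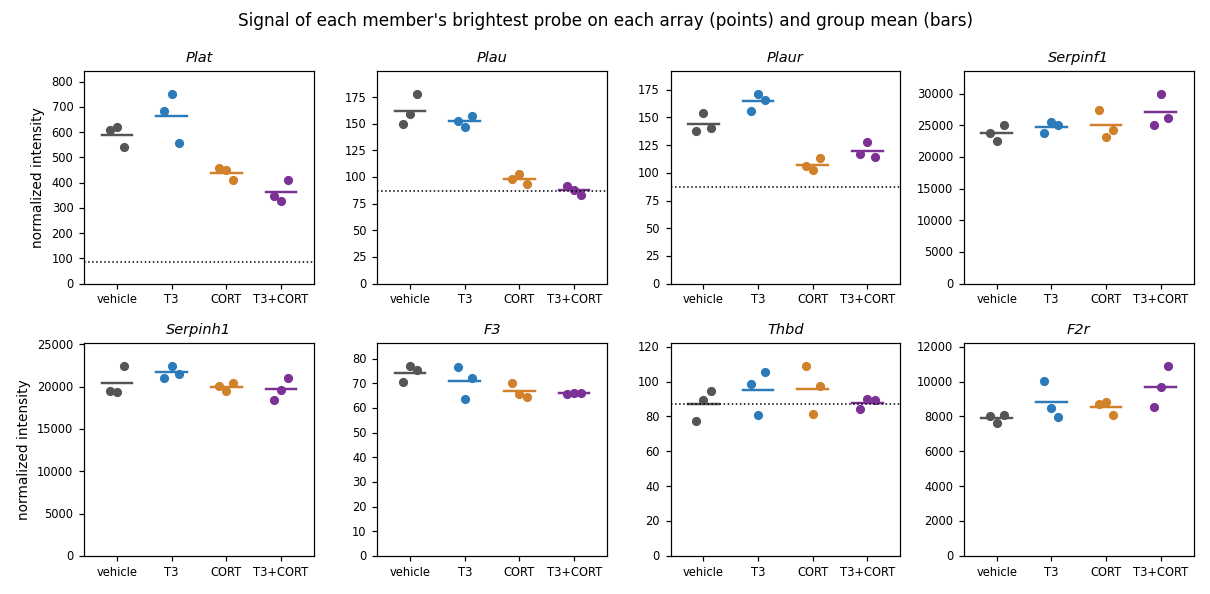
Normalized intensity (linear scale from 0) of the brightest probe of each of 8 genes, with 1 point per array, a bar at the mean of the 3 arrays of a group and a dotted line at the limit of detection of 87.0 where the scale is low enough to show it. *Plat*, *Plau* and *Plaur* are lower in the CORT and T3+CORT groups than in the vehicle and T3 groups, while *F3* stays below the limit, between 63.5 and 77.1.

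In the cells given both hormones *Plau* and *Plat* reached their lowest mean signals. *Plau* read 91.7, 87.5 and 82.8 on T3+CORT, the last below the limit of detection. Against vehicle its log2 difference was -0.89 (standard error 0.08, 95% interval -1.07 to -0.71, limma, adjusted p = 1.6e-06), the 25th lowest of all tested probes. The deposited values show no background subtraction, and with a normexp background correction the difference was -1.18. *Plat*, whose signal was well above the limit on all 12 arrays, read 347.8, 328.1 and 411.7, a mean of 362.5 ± 43.7 against 588.9 ± 41.9 on vehicle (SD, n = 3). Its log2 difference was -0.70 (standard error 0.11, 95% interval -0.94 to -0.47, limma, adjusted p = 0.00038), the 69th lowest. *Plaur* read 117.1, 128.1 and 114.7, between its CORT and its vehicle arrays. It was lower than vehicle, with a log2 difference of -0.26 (95% interval -0.44 to -0.09, limma, adjusted p = 0.03), a call that was lost without vehicle replicate 2 (0.13), vehicle replicate 3 (0.058), T3+CORT replicate 1 (0.089) or T3+CORT replicate 3 (0.1).

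*F2r*, the thrombin receptor, went the other way. It read 8000.7, 7603.8 and 8109.2 on vehicle and 8552.9, 9668 and 10909.4 on T3+CORT. The 3 T3+CORT arrays lay above the vehicle arrays but spread over a wider range than any other group of this gene. The log2 difference was 0.29 (standard error 0.09, 95% interval 0.10 to 0.48, limma, adjusted p = 0.032), and the call was lost without vehicle replicate 1 (0.075), 2 (0.11) or 3 (0.065) and without T3+CORT replicate 2 (0.083) or 3 (0.16). On CORT alone *F2r* was at 8691.3, 8836.6 and 8109.2, a log2 difference of 0.11 (95% interval -0.08 to 0.30, adjusted p = 0.42). In all, 4 of 9 member probes were called on T3+CORT against vehicle, 3 lower and 1 higher, where 20.7% of all tested probes were called, 10.6% lower and 10.1% higher. The median over the 9 member probes was -0.05, and over all tested probes -0.01. *Plau* and *Plat* passed the study's thresholds here, as did 2.32% of all probes, 0.885% lower. Arrays did not overlap for 4 of the 9 member probes and 43.4% of all probes. The CORT and T3+CORT comparisons share their vehicle arrays.

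**Figure D2:**
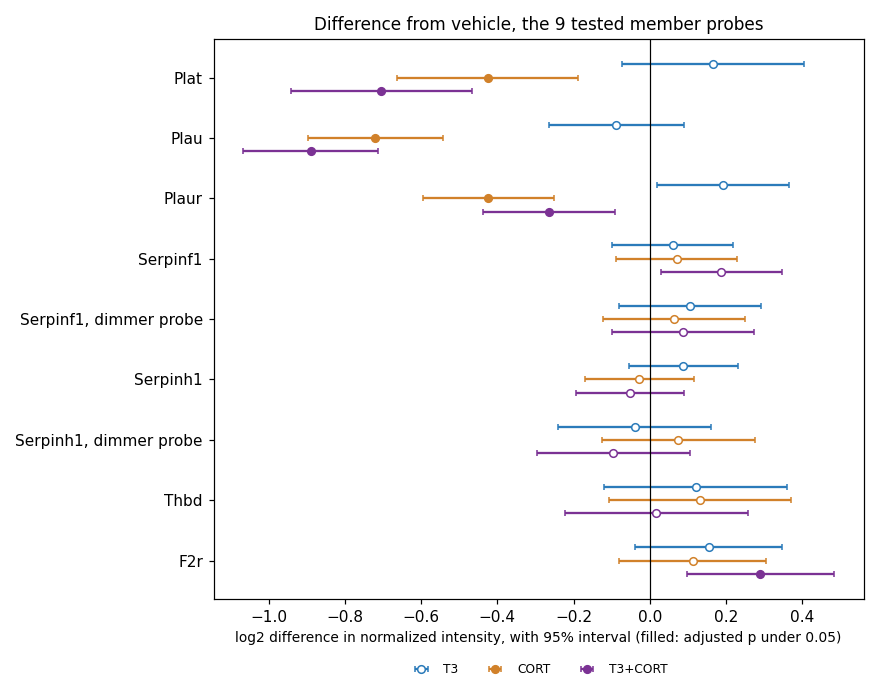
Log2 difference from vehicle of the 9 tested member probes on T3, CORT and T3+CORT, with 95% intervals from the limma fit and filled points for an adjusted p under 0.05. *Plat*, *Plau* and *Plaur* lie left of 0 with CORT and with T3+CORT, and *F2r* lies right of 0 with a filled point on T3+CORT.

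T3 alone called 0 of the 9 member probes in limma, where 0.0902% of all tested probes were called. At an unadjusted p under 0.05 there was 1, beside 5.38% of all probes. That probe was *Plaur*, which read 156, 171.6 and 165.8 on T3, each above all 3 vehicle arrays, with a log2 difference of 0.19 (95% interval 0.02 to 0.36, limma, adjusted p = 0.91). It was the 1 member probe of 9 whose T3 and vehicle arrays did not overlap, beside 9.68% of all probes. *Plau* on T3 read 152.1, 147 and 157.6, within the vehicle arrays but for 147, and its interval ran from -0.26 to 0.09. *Plat* on T3 read 683.4, 752.3 and 557.8, the widest spread of its 4 groups, and its interval ran from -0.07 to 0.40. These bounds hold a small fall as well as a rise, so no direction is given for *Plat* on T3. The methods' t-test called 0 as well.

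The effect of CORT can be read a second time in arrays that share none with the first, by setting T3+CORT against T3. Both comparisons take their standard errors from 1 fit of all 12 arrays, so their tests are not independent. *Plat* fell by 0.87 on the log2 scale (95% interval -1.11 to -0.63, limma, adjusted p = 6.1e-05), the 30th lowest of all tested probes. *Plau* fell by 0.80 (95% interval -0.98 to -0.63, limma, adjusted p = 5.8e-06) and *Plaur* by 0.46 (95% interval -0.63 to -0.28, limma, adjusted p = 0.00095). For each of these genes all 3 T3+CORT arrays lay below all 3 T3 arrays. The activators and their receptor were thus lower with CORT in both of these separate sets of arrays. With T3 present, too, 3 member probes of 9 were called lower and 0 higher, where 22.3% of all tested probes were called and 11.5% were called lower. Arrays did not overlap for 3 of 9, beside 34.8% of all probes. Of the probes not called, *F2r* had a difference of 0.14 (95% interval -0.06 to 0.33).

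Whether T3 altered the response to CORT is asked by the interaction, the CORT effect with T3 less the CORT effect without it. It called 0 of 9 member probes in limma, where 0.113% of all probes were called, and 1 lay at an unadjusted p under 0.05, as did 6.27% of all probes. That 1 was *Plat*, whose fall with CORT was 0.43 without T3 and 0.87 with it on the log2 scale, an interaction of -0.44 (95% interval -0.78 to -0.11, limma, adjusted p = 0.62). For *Plau* the interaction was -0.08 (95% interval -0.33 to 0.17) and for *Plaur* -0.03 (95% interval -0.28 to 0.21). These intervals hold for the normalized signals, which show no background subtraction. *Plau* read 82.8 to 91.7 on T3+CORT, at the limit of detection. A further fall there could not be measured, and its interval does not bound one. T3+CORT against CORT likewise called 0 of 9, where 0.558% of all probes were called, with 1 (*Plat*) at an unadjusted p under 0.05, as had 8.93% of all probes. By mean level *Plat* ordered as T3+CORT, CORT, vehicle and T3, and its T3+CORT and CORT arrays overlapped at 411.7 and 411, with a log2 difference of -0.28 (95% interval -0.52 to -0.04, limma, adjusted p = 0.45). *Plau* ordered as T3+CORT, CORT, T3 and vehicle, and its T3+CORT and CORT arrays did not overlap, at a log2 difference of -0.17 (95% interval -0.35 to 0.01, limma, adjusted p = 0.58). *Plaur* ordered differently, as CORT, T3+CORT, vehicle and T3, with T3+CORT above CORT on every array by 0.16 (95% interval -0.01 to 0.33, limma, adjusted p = 0.6). Arrays of T3+CORT and CORT did not overlap for 2 of the 9 member probes and for 16.7% of all probes.

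**Figure D3:**
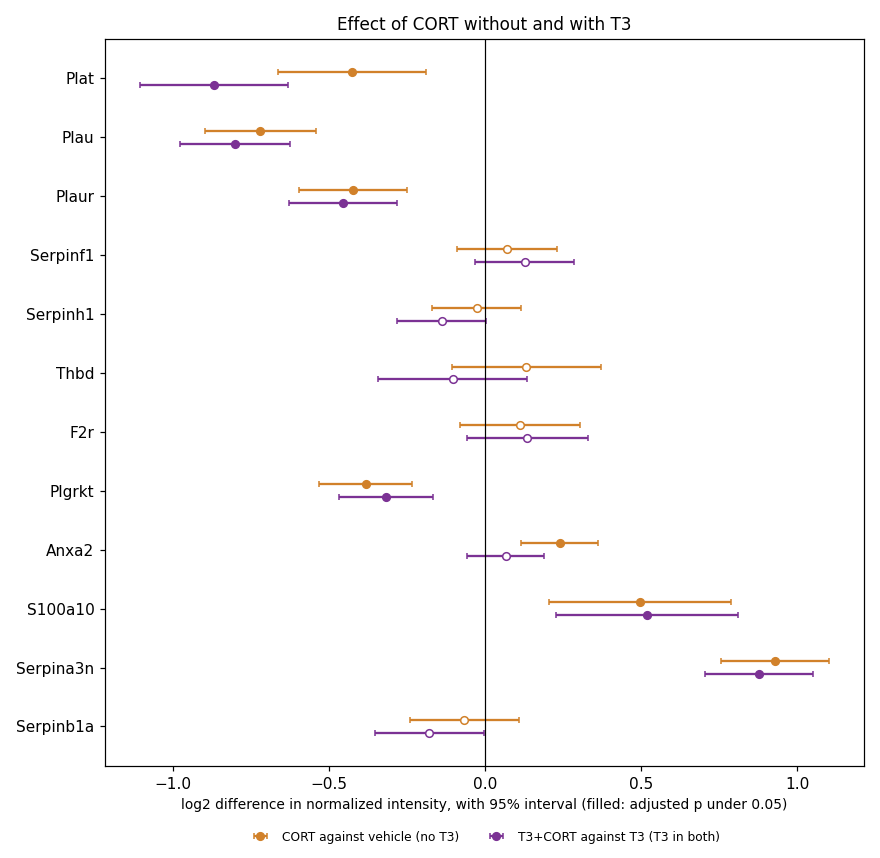
Log2 effect of CORT without T3 (CORT against vehicle) and with T3 (T3+CORT against T3), with 95% intervals from the limma fit, for the main probe of 7 member genes and of 5 other genes called in a comparison; filled points have an adjusted p under 0.05. *Plat*, *Plau*, *Plaur* and *Plgrkt* lie left of 0 in both, *S100a10* and *Serpina3n* right of 0 in both, and the intervals of each gene overlap.

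The member serpins were bright and changed little. *Serpinf1* read 22469.1 to 25117.3 on vehicle and 25117.3, 30024 and 26212.5 on T3+CORT, and the groups met at 25117.3. Its log2 difference was 0.19 (95% interval 0.03 to 0.35, limma, adjusted p = 0.088), and over the alternatives the adjusted p ran from 0.017 with array weights to 0.35 without T3+CORT replicate 2, where the difference was 0.11. It was called with array weights and in a fit of the vehicle and T3+CORT arrays alone (0.04). At the other *Serpinf1* probe, which read 80.8 to 101.5 and so lay at the limit of detection, the difference was 0.09 (95% interval -0.10 to 0.27). *Serpinh1*, the collagen chaperone, read 18454.5 to 22469.1 over the 12 arrays, with a difference of -0.03 on CORT (95% interval -0.17 to 0.11) and -0.05 on T3+CORT (95% interval -0.19 to 0.09). Its other probe, at 1947.6 to 2505.4, was called in no comparison either. Neither *Serpinh1* interval on CORT or T3+CORT holds a fall as large as that of *Plaur* on CORT, 0.42.

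*F3* and *Thbd* lay below or near the limit of detection. *F3* read 63.5 to 77.1 and lay below the limit on all 12 arrays, as did the dimmer *Plat* probes at 51.8 to 83.7, so they have no measured change. *Thbd* read 77.4 to 109, with 2 of 3 arrays at or above the limit in each group. Its log2 difference was 0.13 on CORT (95% interval -0.11 to 0.37, limma, adjusted p = 0.45) and 0.02 on T3+CORT (95% interval -0.22 to 0.26, limma, adjusted p = 0.94). Each interval holds both a fall and a rise, so no direction is given for *Thbd*.

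The rest of the pathway was mostly below detection. Of 46 further genes of fibrinolysis and coagulation 42 had a probe and 8 were tested. Plasminogen itself, *Plg*, lay below the limit at each of its 4 probes on every array, with a highest value of 74.6, and so did the coagulation factor genes *F7*, *F8* and *F10*. At the brightest probe of each gene, 3 of the 8 were called on CORT, 2 higher and 1 lower (20.7% of all tested probes were called), 1 was called lower on T3+CORT against vehicle (20.7%), and 1 was called higher and 1 lower on T3+CORT against T3 (22.3%). *Anxa2* counts here at its brighter probe, called higher on CORT; its dimmer probe, given below, was called lower on T3+CORT against vehicle and against T3. On T3, between T3+CORT and CORT, and in the interaction 0 of 8 were called. The median log2 difference of the 8 on CORT was 0.04, beside -0.01 over all tested probes.

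The called genes were surface binders of plasminogen. *Plgrkt*, a transmembrane plasminogen receptor, read 3866.9, 4078.2 and 4023.3 on vehicle and 2869.5, 3050.2 and 3269.7 on CORT. It was lower on every CORT array than on any vehicle array, with a log2 difference of -0.38 (95% interval -0.53 to -0.23, limma, adjusted p = 0.0013). On T3+CORT it differed from vehicle by -0.37 (limma, adjusted p = 0.0018) and from T3 by -0.32 (limma, adjusted p = 0.0044).

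*S100a10*, a subunit of the annexin complex that binds tissue-type activator and plasminogen, read 2852.4, 3328.2 and 3135.7 on vehicle and 4126.8, 4387.1 and 4616.3 on CORT. It rose by 0.50 (95% interval 0.20 to 0.79, limma, adjusted p = 0.018). On T3+CORT against vehicle it was at 0.35 (limma, adjusted p = 0.081). With T3 present the CORT difference was 0.52 (95% interval 0.23 to 0.81, limma, adjusted p = 0.013), though T3 replicate 3 at 3502.4 lay above T3+CORT replicate 3 at 3435.8. *Anxa2*, its annexin partner, gave probes that disagree. The brighter probe rose from 26129.8, 27039.8 and 26129.8 on vehicle to 31570.2, 30117.9 and 31948.5 on CORT, by 0.24 (limma, adjusted p = 0.0085), and was at 0.06 on T3+CORT (limma, adjusted p = 0.48). The dimmer probe was lower on T3+CORT, at 169.6, 192.8 and 155 against 292.3, 257.8 and 215.7 on vehicle, with a log2 difference of -0.56 (limma, adjusted p = 0.0019), and at -0.26 on CORT (limma, adjusted p = 0.099). No direction is given for *Anxa2*. The other tested genes, *Lrp1*, *Fgg*, *Tfpi*, *Procr* and *Pros1*, were called in no comparison.

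**Figure D4:**
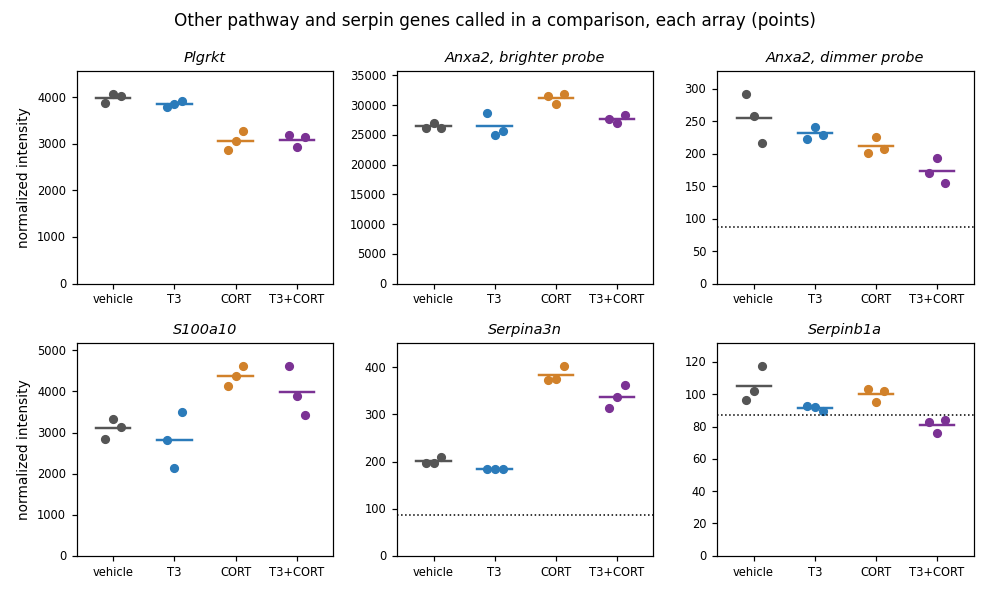
Normalized intensity (linear scale from 0) on each array, with group means as bars, for the other pathway and serpin genes called in a comparison; *Anxa2* has a panel for each probe, and a dotted line marks the limit of detection of 87.0. *Plgrkt* is lower and *S100a10* and *Serpina3n* are higher in the CORT than in the vehicle group, and *Serpinb1a* is below the limit on the 3 T3+CORT arrays.

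Of 47 other serpin genes, all with a probe, 7 were tested. *Serpina3n*, an acute-phase inhibitor of serine proteases, had the largest difference on CORT against vehicle of all the tested members, pathway genes and serpins. It read 197.6, 196.4 and 210 on vehicle, 372.3, 375.3 and 403 on CORT and 313.7, 337.8 and 361.5 on T3+CORT. Both CORT groups lay well above the vehicle group, with log2 differences of 0.93 on CORT (95% interval 0.76 to 1.10, limma, adjusted p = 6.8e-07), 0.74 on T3+CORT (limma, adjusted p = 1.1e-05) and 0.88 for T3+CORT against T3 (limma, adjusted p = 1.4e-06). *Serpina3n* belongs to a family of near-identical gene copies, and which copies its probe reads was not tested. *Serpinb1a*, an inhibitor of neutrophil proteases, read 96.2, 101.9 and 117.6 on vehicle and 83, 76 and 83.9 on T3+CORT. All 3 T3+CORT arrays were below the limit, so vehicle was at least 1.21-fold higher, measured against the limit on each array (limma, adjusted p = 0.0045). The other 5 serpins were called in no comparison, at any of their tested probes. On CORT 1 of 7 was thus called higher and 0 lower, and on T3+CORT 1 was called higher and 1 lower, beside 20.7% of all tested probes called in each.

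The genes whose log2 signal followed *Plau* most closely over the 12 arrays were *Sertad4* (Pearson r = 0.979), *Fas* (0.978) and *Fgf7* (0.976), and for *Plat* they were *Emp1* (0.981), *Senp5* (0.96) and *Tcf7l2* (0.96). These are descriptions over arrays that share the same 4 group means, picked as the highest of all tested probes with 1 gene symbol.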

How the data were processed

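RNA of 12 samples in 4 groups was hybridized to Illumina Mouse WG-6 arrays. Per the paper's methods the authors normalized the deposited intensity values by rank invariance in BeadStudio; the 12 arrays share 1 distribution to within 0.5. The deposited detection p-values jointly set the limit of detection (87.0, from p under 0.05 in the 6 of 12 columns with over 10% of probes detected). The 12 signal columns beside them match no sample label and were not used. Log2 intensities of all groups were fitted with limma 3.58.1 in R 4.3.3 (group means, eBayes with trend, 8 residual degrees of freedom), and p values of the 6 comparisons were adjusted by Benjamini-Hochberg over the 17746 tested probes; a call is an adjusted p under 0.05. The fit was tested on simulated data. A gene's main probe is its brightest. All member genes are named, other pathway and serpin genes where called, and for *Plau* and *Plat* the 3 genes of most similar pattern. Members and lists were chosen with earlier results of these data known. Symbols come from the platform annotation (34885 probes with 1 symbol, 18 with several, 10378 with none), positions and promoters from RefSeq (GRCm38.p6). Alternatives covered the filter, test, call rule, prior, weights, samples, background, centring, replicate block and each array left out.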

Additional observations from a re-analysis of the deposited data

How the results depend on the processing

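Counts of called member probes moved as follows. On CORT against vehicle the study's thresholds gave 1 and the Welch t-test 0 (3 at an unadjusted p under 0.05) in place of 3, and leaving out 1 array gave 2 to 3. On T3+CORT against vehicle they gave 2 and 0 (3 unadjusted) in place of 4, no filter gave 3, array weights and a fit of only the 2 groups 5 each (*Serpinf1* added), and leaving out 1 array gave 2 to 4, the lowest without vehicle replicate 2, vehicle replicate 3 or T3+CORT replicate 3. On T3+CORT against T3 the study's thresholds gave 2 (without *Plaur*) and the t-test 0 (3 unadjusted) in place of 3, and leaving out 1 array gave 3 each time. The other 3 comparisons gave 0 under every alternative run. *Plau* kept its calls on CORT, T3+CORT and T3+CORT against T3 under each limma alternative and lost them with the t-test. No direction of a called value reversed. With no filter on dim probes *Plaur* on T3+CORT had an adjusted p of 0.065. The share of all probes called on CORT ran from 0.687% with the t-test and 6.25% with no filter to 30.8% with array weights, and on T3+CORT from 0.332% and 6.59% to 31.8%; on T3+CORT against T3 the t-test called 0.00564% and a fit of only the groups compared 13.1%.

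For same-numbered arrays the r of their deviations from the group means ran from -0.27 to 0.45 over 18 pairs. Over 36 pairs of unlike number it ran from -0.40 to 0.40. The ranges overlap, and the highest r was that of T3 replicate 1 with CORT replicate 1. With the number as a replicate block the counts were 3 on CORT, 4 on T3+CORT, 3 on T3+CORT against T3 and 0 in the others, and the block changed no call. *Thbd* was not tested at the stricter limit of 105.4, and the t-test and the fit of only the groups compared were not run for the interaction. Signals of *Plau*, *Plaur* and *Thbd* lie close to the limit, which bounds how well their changes can be sized.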
